A study of Mus musculus with 29 samples.

Results

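The cytosolic ribosome is built from ribosomal RNA and the ribosomal proteins of its large (Rpl) and small (Rps) subunit. The genes of these proteins are active in nearly every cell, are transcribed from short promoters with sharply placed starts, and are counted among the housekeeping genes. Their messages begin with a run of pyrimidines that couples their translation to growth signals. They serve here as a set of promoters with no known special tie to hair cells, against which the positions of 3 transcription factors were read. Members were the protein-coding genes of the mm9 annotation whose symbol is Rpl or Rps followed by a number and an optional letter, without pseudogenes and without the Rps6 kinases. The rule found 76 of 22367 protein-coding genes, of which 45 encode large-subunit and 31 small-subunit proteins. A gene was counted in a peak list when at least 1 summit that the authors kept lay within 1 kb of any of its annotated transcription starts.

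The lists came from mouse embryonic stem cell lines that carry 1 inserted cassette of Atoh1, Pou4f3 and Gfi1 under doxycycline control. Atoh1 is the basic helix-loop-helix factor that starts hair cell and some neuronal differentiation, Pou4f3 is a POU homeodomain factor needed for hair cell survival, and Gfi1 is a zinc finger repressor also needed by hair cells. The 6 lines expressed Atoh1 alone (iAtoh1), Pou4f3 alone (iPou4f3), Gfi1 with Atoh1 (iG+A), Gfi1 with Pou4f3 (iG+P), Pou4f3 with Atoh1 (iP+A) or all 3 (iGPA), each followed by a Venus reporter. All were grown as embryoid bodies to day 6 and received 2 µg/ml doxycycline for the last 48 h. Chromatin immunoprecipitation and sequencing gave 17 precipitated and 12 input libraries, with 2 replicates for each line and factor and 1 library for Gfi1, and per the design text replicates were different clones of a line. The antibodies recognised the Flag tag of Atoh1, the Myc tag of Pou4f3 and the Gfi1 protein itself, so a factor and its antibody cannot be told apart. Peaks were called on merged replicates, and each of the 9 lists is therefore 1 value with no replicate spread and no test. Shares are given with exact Clopper-Pearson 95% intervals, which cover counting error over genes only. The lists held 3012 (Gfi1) and otherwise 15568 to 32632 kept summits, and between 11.9% and 33.1% of them lay within 1 kb of a protein-coding start. The files hold no expression values, so the identity of the cells was not checked against markers.

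Sequences around the starts of Rpl32, Rpl5, Rpl27 and Rpl13 are shown first, because these genes held summits in 7 or 8 of the 9 lists. Stretches of 100 bases are given in the direction of the gene, from NCBIM37, the assembly that is also called mm9. The first stretch of each gene ends 1 base before its outermost annotated start. The second was placed around the median of the gene's strongest summits, within the intron, where that median lay in an intron. Capitals mark E-boxes (the form CAGATG, the form CAGCTG or the form CACGTG), the GGGCGG pattern of Sp1 and the CCGGAAG pattern of ETS factors, on either strand.
Rpl32 upstream, chr6:115758766-115758865, minus strand: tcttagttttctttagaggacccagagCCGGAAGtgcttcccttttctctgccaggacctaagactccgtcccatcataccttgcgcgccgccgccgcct
Rpl32 intron 1, chr6:115758616-115758715, minus strand: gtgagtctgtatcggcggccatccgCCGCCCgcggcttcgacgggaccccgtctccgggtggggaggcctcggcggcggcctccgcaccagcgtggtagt
Rpl5 upstream, chr5:108329421-108329520, plus strand: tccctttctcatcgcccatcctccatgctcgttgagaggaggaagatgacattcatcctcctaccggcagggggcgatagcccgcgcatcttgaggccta
Rpl5 intron, chr5:108329678-108329777, plus strand: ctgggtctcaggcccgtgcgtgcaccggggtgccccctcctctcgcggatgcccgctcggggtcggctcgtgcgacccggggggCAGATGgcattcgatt
Rpl27 upstream, chr11:101303512-101303611, plus strand: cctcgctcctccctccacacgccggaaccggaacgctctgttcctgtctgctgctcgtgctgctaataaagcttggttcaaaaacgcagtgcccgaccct
Rpl13 upstream, chr8:125626150-125626249, plus strand: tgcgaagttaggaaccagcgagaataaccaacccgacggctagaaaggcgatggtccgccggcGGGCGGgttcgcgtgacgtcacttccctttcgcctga
Rpl13 intron, chr8:125626406-125626505, plus strand: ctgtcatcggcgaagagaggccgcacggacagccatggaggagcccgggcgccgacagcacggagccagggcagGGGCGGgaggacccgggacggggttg
The intron stretches were placed by the summits and the upstream stretches were not, so their summit counts are not a comparison. The Rpl5 intron stretch contained the strongest summit of the gene in 8 of 8 lists, the Rpl32 stretch in 7 of 8 and the Rpl13 stretch in 5 of 7, while none of the 4 upstream stretches contained one. For Rpl27 the summits near the first starts fell within an annotated untranslated exon, which is not printed.

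The lists of Pou4f3 contained a large part of the ribosomal protein genes. In iPou4f3, 58 of 76 genes had a kept Pou4f3 summit near a start (76.3%, interval 65.2% to 85.3%), beside 25.9% of all protein-coding genes. In iG+P the count was 51 (67.1%, 55.4% to 77.5%), beside 20.5% of all genes. In iP+A it was 33 (43.4%, 32.1% to 55.3%), beside 14.1%. In iGPA it was 24 (31.6%, 21.4% to 43.3%), beside 9.89%. The count of genes thus differed between the 4 lines from 24 to 58, while the ratio of the members' share to that of all genes was 2.95, 3.27, 3.08 and 3.19 in the same order. The ratios lay further apart when weak summits were left out. With a −log10 p of at least 10 they were 5.22, 5.10, 5.80 and 1.48, and with each list shortened to its 3012 summits of highest −log10 p they were 7.62, 1.10, 3.74 and 1.21, on 11, 1, 4 and 1 members.

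At the limit of 1 kb the lists of Atoh1 stood near the level of other genes. Within 250 bp of a start the ratios to all genes were higher, at 1.83 (iAtoh1), 1.22 (iG+A), 1.61 (iP+A) and 1.24 (iGPA). In iAtoh1, 13 of 76 genes had a kept Atoh1 summit (17.1%, interval 9.43% to 27.5%), beside 12.1% of all protein-coding genes. In iG+A there were 15 (19.7%, 11.5% to 30.5%) beside 20.7%, and in iP+A 16 (21.1%, 12.5% to 31.9%) beside 18.3%. In iGPA there were 20 (26.3%, 16.9% to 37.7%) beside 26.0%. The ratios were 1.41, 0.952, 1.15 and 1.01, and the interval of the members' share held the value of all genes in each of the 4 lists. The Gfi1 list of iGPA held 7 genes (9.21%, 3.78% to 18.1%), beside 4.76% of all genes, and its interval also held that value.

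**Figure D1:**
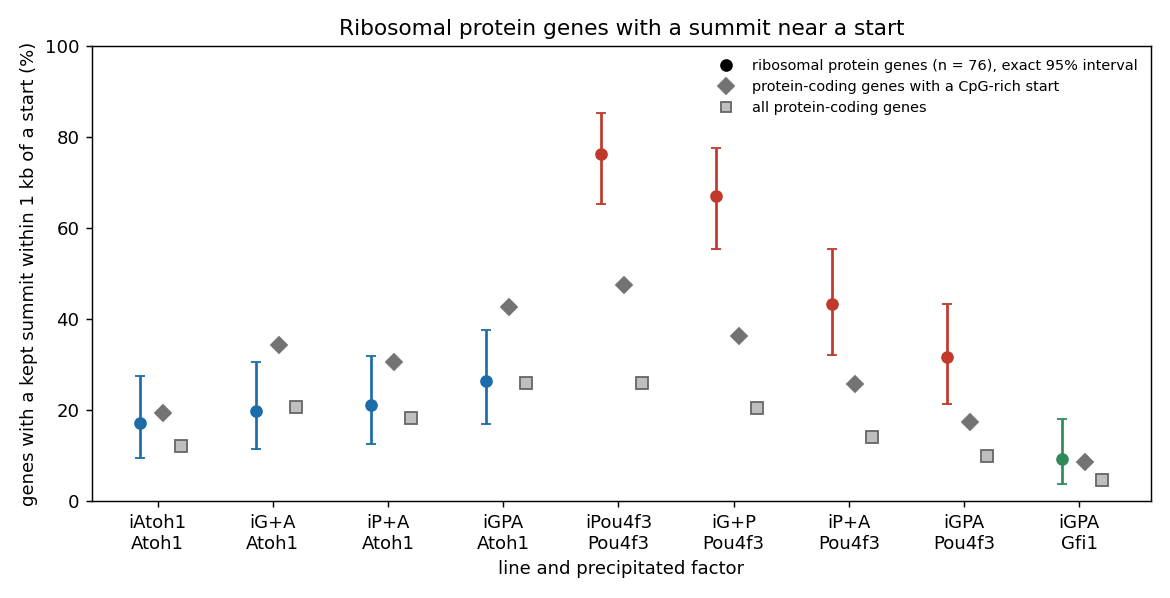
Percent of genes with a kept summit within 1 kb of an annotated start, for the 9 combinations of line and precipitated factor. Circles are the 76 ribosomal protein genes with exact 95% intervals (counting error only), diamonds are genes with a CpG-rich start and squares all protein-coding genes. In the 4 Pou4f3 lists the circles, at 31.6% to 76.3%, lie above both backgrounds, and in the Atoh1 lists of iG+A and iGPA the CpG-rich background lies above the interval.

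Part of the distance to other genes went with base composition. A gene was said to have a CpG-rich start when the 1 kb around any of its starts had at least 50% G and C and an observed-to-expected CpG ratio of at least 0.6, and 71 of the 76 members (93.4%) had such a start, beside 10940 of all protein-coding genes (48.9%). Among all CpG-rich genes, 47.5%, 36.3%, 25.7% and 17.3% had a Pou4f3 summit across iPou4f3, iG+P, iP+A, iGPA. Against these the ratios of the ribosomal protein genes were 1.61, 1.85, 1.69 and 1.83, and each of the 4 CpG-rich shares lay below the interval of the members' share. For Atoh1 the CpG-rich genes stood at 19.4%, 34.4%, 30.6% and 42.7% across iAtoh1, iG+A, iP+A, iGPA. The ribosomal protein genes lay below these values, with the interval excluding that of CpG-rich genes in iG+A and in iGPA. In iGPA the ratio was 0.617. For Gfi1, 8.51% of CpG-rich genes had a summit, within the interval of the members.

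Other gene families of basic cell function gave a background of their own. Mitochondrial ribosomal proteins, which form the ribosome inside the organelle and also number 76, held Pou4f3 summits in 35, 28, 21 and 18 genes of the iPou4f3, iG+P, iP+A and iGPA lists. Translation initiation factors, 58 genes that load the ribosome on messages, held 30, 28, 13 and 10. Among 20 cytosolic tRNA synthetases, which charge tRNAs with amino acids, 9, 11, 5 and 5 had one. Of 42 subunits and assembly factors of respiratory complex I, 21, 15, 11 and 5 had one. Of 41 proteasome subunits, 13, 12, 6 and 5 had one. The cytosolic ribosomal protein genes had the highest share of these 6 families in all 4 Pou4f3 lists, and their interval lay above that of the proteasome subunits in all but iGPA and above that of the mitochondrial ribosomal proteins in iPou4f3 and iG+P. It overlapped that of the tRNA synthetases in all 4 lists, that of complex I in all but iG+P and that of the initiation factors in all but iPou4f3.

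With Atoh1 the cytosolic ribosomal protein genes did not have the highest share of the 6 families in any of the 4 lists. In iGPA, 33 of 76 mitochondrial ribosomal protein genes (43.4%, interval 32.1% to 55.3%) and 26 of 58 initiation factor genes (44.8%, 31.7% to 58.5%) had an Atoh1 summit, beside the 26.3% of the cytosolic ribosomal protein genes. In iG+A these families stood at 38.2% and 34.5%, beside 19.7%, and in iP+A 19 of 76 and 18 of 58 genes had one, beside 16 of 76. In iAtoh1 the mitochondrial family was the lower one, at 9.21% beside 17.1%, and initiation factors stood at 22.4%. Proteasome subunits lay below the cytosolic ribosomal protein genes in all 4 Atoh1 lists, at 4.88% (iAtoh1), 14.6% (iG+A), 12.2% (iP+A) and 14.6% (iGPA). The intervals of the cytosolic and mitochondrial families overlapped in all 4 Atoh1 lists.

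Both subunits were represented. In iPou4f3, 35 of 45 large-subunit and 23 of 31 small-subunit genes had a Pou4f3 summit, and in iG+P 29 and 22. In iP+A the counts were 21 and 12, and in iGPA 15 and 9. Atoh1 in iGPA was at 16 large-subunit genes (35.6%, interval 21.9% to 51.2%) and 4 small-subunit genes (12.9%, 3.63% to 29.8%), beside 26.0% of all genes, and the intervals overlapped. In iP+A the Atoh1 counts were 12 (26.7%) and 4 (12.9%), beside 18.3%, also with overlapping intervals. In iG+A the counts for Atoh1 were 9 and 6, in iAtoh1 8 and 5, and for Gfi1 4 and 3.

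Across lists the genes fell into few classes. A Pou4f3 summit was present in at least 1 list for 63 genes (82.9%, beside 34.9% of all genes), and an Atoh1 summit for 33 (43.4%, beside 35.9%). Both factors were found at 32 genes (42.1%, beside 23.3%), counted over any lines and any starts of a gene, so not necessarily in 1 line or at 1 site. Lists of different factors from iP+A or from iGPA were called against the same input libraries. Pou4f3 without Atoh1 was found at 31 (40.8%, beside 11.6%). Atoh1 without Pou4f3 was found at 1 gene, Rps13 (1.32%, beside 12.6% of all genes). In total 64 members (84.2%, beside 48.0% of all genes) had a summit in at least 1 list. The 12 genes in no list (15.8%, beside 52.0%) included Rpl3, Rpl10, Rpl34, Rpl36a, Rps9, Rps16, Rps21 and the paralogs Rpl3l, Rpl10l and Rpl39l, which are known for expression in muscle or testis.

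The shorter Pou4f3 lists were largely contained in the longer ones. Of the 33 genes in iP+A, 32 were also in the iPou4f3 list, which is 97.0% of the first and 55.2% of the second, beside 76.3% and 41.6% for all protein-coding genes. The 47 genes shared by iG+P and iPou4f3 were 92.2% and 81.0% of these lists, beside 69.9% and 55.4%. The 22 shared by iGPA and iPou4f3 were 91.7% and 37.9%, beside 81.2% and 31.0%. The 21 shared by iGPA and iG+P were 87.5% and 41.2%, beside 73.9% and 35.5%. The 17 shared by iGPA and iP+A were 70.8% and 51.5%, beside 59.7% and 41.8%. These shares depend on how many of the 76 genes a list holds, and a list of 58 shares most genes by its size. For Atoh1, with 13 to 20 members a list, the shares of the list named first ran from 40.0% (iG+A in iP+A, beside 55.0% of all genes) to 73.3% (iG+A in iGPA, beside 72.3%). For iAtoh1 they were 53.8% in iG+A and 69.2% each in iP+A and iGPA, beside 71.5%, 69.9% and 82.8%.

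All 4 Pou4f3 lists held 15 members (19.7%, beside 4.77% of all genes), namely Rpl5, Rpl10a, Rpl12, Rpl13, Rpl17, Rpl24, Rpl26, Rpl29, Rpl32, Rpl36, Rps3, Rps6, Rps7, Rps14 and Rps19. The strongest summits of a gene lay close together between lists, with a median range of 85 bp over the 15 genes and a range within 100 bp for 9 of them. Rpl12 had the tightest set, with summits 123 to 136 bp downstream of the nearest start and a range of 13 bp, although the start of Lrsam1 lies 33 bp away and the summits cannot be assigned to 1 of the 2 genes. Rps3, whose protein also has a role in DNA repair, had a range of 33 bp at 72 to 105 bp downstream. In Rpl24 the strongest summits were 7394 bp apart, because they lay at different annotated starts. All 4 Atoh1 lists held 6 members (7.89%, beside 6.72%), and no member was in all 9 lists.

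**Figure D2:**
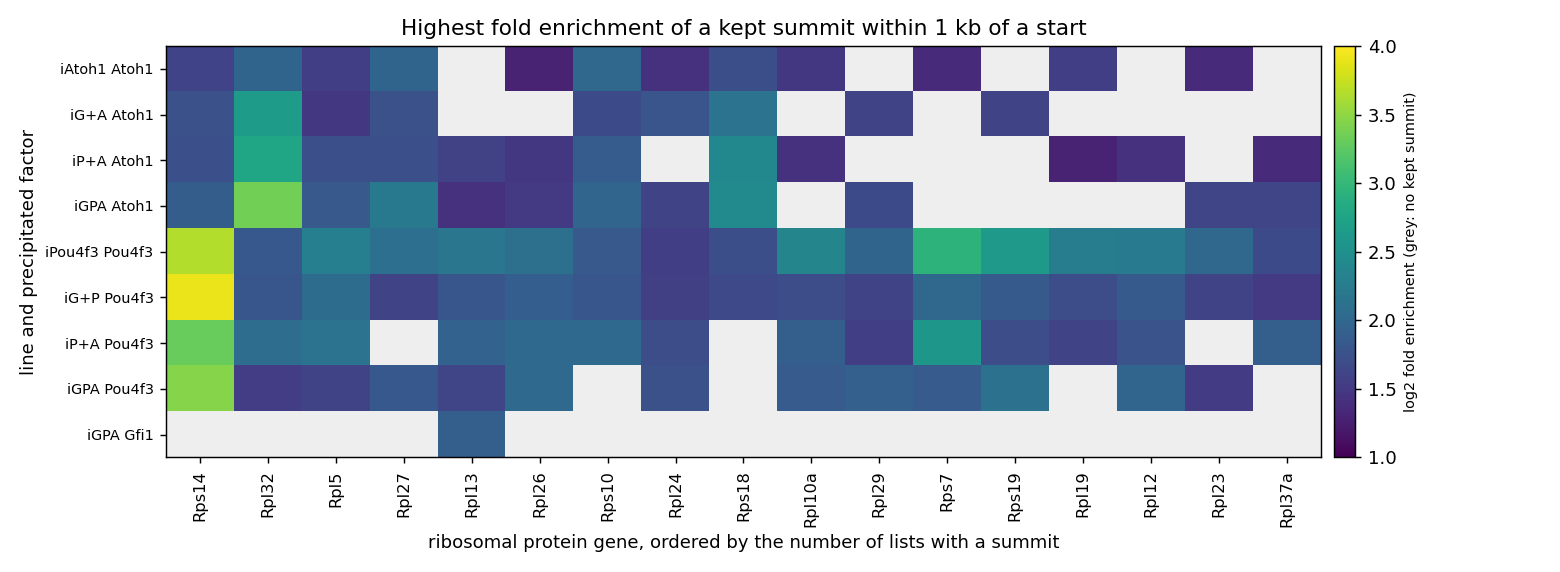
Highest fold enrichment of a kept summit within 1 kb of a start (log2 colour scale, grey for no kept summit), for the ribosomal protein genes with a summit in at least 5 lists (columns) and the 9 lists (rows). Rpl32 has the highest Atoh1 value, 10.3 fold in iGPA, and Rps14 stands out in the 4 Pou4f3 rows at 9.85 to 15.0 fold.

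Fold enrichment, the ratio of the precipitated pileup to the local background, described how strong the summits were within a list. Rps14, a small-subunit protein of the ribosomal platform, was the exception among the members for Pou4f3. Its fold was 12.6 (iPou4f3), 15.0 (iG+P), 9.85 (iP+A) and 11.0 (iGPA), from pileups of 121, 136, 86 and 111 fragments. These summits lay 290 to 310 bp upstream of its outermost start and spanned 20 bp, further from the start than those of most members. The 250 bp centred on each of them contained the Pou4f pattern with 1 mismatch and the E-box CAGATG. Its Atoh1 folds were 3.05 (iAtoh1), 3.34 (iG+A), 3.33 (iP+A) and 3.69 (iGPA), and folds of different lists are not on 1 scale. The strongest Atoh1 summit lay near the Pou4f3 position only in iP+A, at 280 bp upstream. Elsewhere it lay 38 bp upstream (iAtoh1), 42 bp downstream (iG+A) or 64 bp upstream (iGPA) of the nearest start. In iGPA a further Atoh1 summit fell on the same base as the Pou4f3 summit of that line.

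Rpl32 was the exception for Atoh1. The fold of its Atoh1 summit was 3.91 (iAtoh1), 6.27 (iG+A), 6.78 (iP+A) and 10.3 (iGPA), from 31, 46, 62 and 83 fragments. The 4 summits lay at chr6:115758668-115758698, 67 to 97 bp downstream of the start and in intron 1. The Pou4f3 folds at the same place were 3.55 (iPou4f3), 3.50 (iG+P), 4.19 (iP+A) and 2.92 (iGPA). The gene thus had Atoh1 and Pou4f3 summits within the same intron in all 8 lists of these factors. The 250 bp around its Atoh1 summits contained CAGATG, which lies outside the printed stretch, and the Sp1 pattern.

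Rpl5, which carries the 5S RNA into the large subunit and binds Mdm2, was also in all 8 Atoh1 and Pou4f3 lists. Its Pou4f3 folds were 4.92, 4.16, 4.42 and 3.06 across iPou4f3, iG+P, iP+A, iGPA. Its Atoh1 folds were 2.93, 2.80, 3.33 and 3.57 across iAtoh1, iG+A, iP+A, iGPA. All 8 summits lay at chr5:108329704-108329757, in the intron stretch printed above that holds 1 CAGATG.

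Rpl27 and Rpl13 followed with 7 lists each. Rpl27 had Atoh1 folds of 3.91 (iAtoh1), 3.34 (iG+A), 3.33 (iP+A) and 4.64 (iGPA), and Pou4f3 folds of 4.29 in iPou4f3, 3.06 in iG+P and 3.55 in iGPA. Rpl13 had Pou4f3 folds of 4.51, 3.50, 3.85 and 3.08 across iPou4f3, iG+P, iP+A, iGPA, at chr8:125626424-125626465. Its Atoh1 folds were 3.01 in iP+A and 2.69 in iGPA, and its Gfi1 fold of 3.74 lay upstream of the intron in the first exon.

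Of the other genes with the most lists, Rps10 had Atoh1 folds of 3.18 to 4.03 in 4 lists and Pou4f3 folds of 3.50 to 4.08 in 3. Loss of 1 copy of the human genes of Rps10, Rps19 or Rpl26 is a known cause of Diamond-Blackfan anaemia. Rpl26 had Pou4f3 folds of 4.30, 3.72, 4.08 and 4.08 across iPou4f3, iG+P, iP+A, iGPA. Its Atoh1 folds were 2.44 to 2.85 in 3 lists. Rpl24 had folds of 2.69 to 3.47 in 7 lists and Rpl10a 2.69 to 5.14 in 6. Rps18 was the second member of note for Atoh1, with 3.30 (iAtoh1), 4.41 (iG+A), 5.27 (iP+A) and 5.41 (iGPA), but the start of Vps52 lies 86 bp from its own.

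Among the strongest Pou4f3 summits, Rps27a, which encodes a ribosomal protein fused to ubiquitin, reached 8.64 in iPou4f3. Its folds were 2.94 in iP+A and 3.35 in iGPA, with no kept summit in iG+P. The start of 1700034F02Rik lies 59 bp away, so the summits cannot be assigned to Rps27a alone. Rps7 had Pou4f3 folds of 7.68 (iPou4f3), 4.05 (iG+P), 6.00 (iP+A) and 3.64 (iGPA). Rps6, the target of the S6 kinases, had 4.85, 4.16, 4.08 and 3.50 in that order, and Rps19 had 6.12, 3.61, 3.28 and 4.34. In iG+A, Rpl37 had the third highest Atoh1 fold of the members, 3.74. The Gfi1 folds were 4.62 at Rpl7 and Rps29, 4.33 at Rpl23a, 4.18 at Rps12 and Rps26 and 3.74 at Rpl13, from 16 to 20 fragments. The median of all promoter summits in that list was 4.31. Of the 7 member summits, 0 reached a −log10 p of 10, beside 38.5% of all promoter summits.

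The typical summit at a ribosomal protein gene was of modest strength. The median fold of member summits in the Pou4f3 lists was 3.44 (iPou4f3), 3.17 (iG+P), 3.20 (iP+A) and 3.35 (iGPA). For the promoter summits of all protein-coding genes the medians were 3.09, 2.85, 2.94 and 3.50. In iPou4f3, 35 of 67 member summits (52.2%) reached a −log10 p of 10, beside 28.9% of all promoter summits, whereas in iGPA 4 of 27 (14.8%) did, beside 33.5%. In the Atoh1 lists member medians were 2.93, 3.07, 2.69 and 3.32 across iAtoh1, iG+A, iP+A, iGPA, each below the 3.14, 3.20, 3.01 and 3.37 of all promoter summits. The Gfi1 medians were 4.18 and 4.31. The median local background at member summits was 8.69 fragments in iPou4f3, beside 7.72 for all promoter summits, and was equal to that of all promoter summits in the other 8 lists. The part of local background in the iPou4f3 counts was not tested.

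Summits at these genes lay close to the start. In the Atoh1 and Pou4f3 lists, 78.3% to 88.2% of member summits were within 250 bp of a start, beside 54.3% to 66.7% of all promoter summits, and for Gfi1 57.1%, beside 56.8%. Pou4f3 summits were mostly downstream, with median distances of 51, 82, 84 and 59 bp downstream across iPou4f3, iG+P, iP+A, iGPA. The medians of all promoter summits were 65, 69, 74 and 7 bp downstream. By annotation, 26 of 67 member summits in iPou4f3 (38.8%) lay in an intron, 15 in an untranslated exon and 15 outside the gene. Among all promoter summits of that list 31.6% were intronic. In iGPA 3 of 27 Pou4f3 member summits (11.1%) lay outside the gene, beside 32.0% of all promoter summits.

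**Figure D3:**
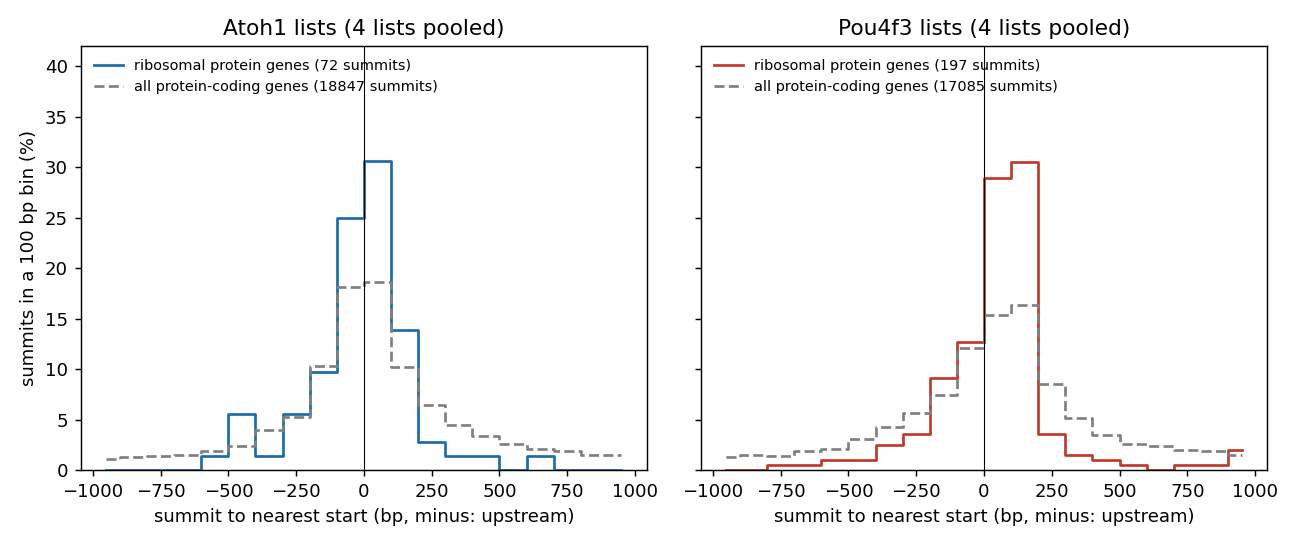
Percent of kept promoter summits in each 100 bp bin of the distance to the nearest annotated start (minus is upstream), for the 4 Atoh1 lists pooled (left) and the 4 Pou4f3 lists pooled (right). Solid lines are the 72 and 197 summits at ribosomal protein genes and dashed lines the summits at all protein-coding genes, and in the right panel the solid line stands highest in the bins from 0 to 200 bp downstream.

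The sequence patterns of the factors differed in frequency between member summits and those at other promoters, in both directions. Letters were read on both strands over the 250 bp centred on each summit, and a match describes letters and not a bound site. The E-box CAGCTG, a form bound by Atoh1, was found at 1 of 13, 1 of 17, 1 of 19 and 2 of 23 member summits in the Atoh1 lists across iAtoh1, iG+A, iP+A, iGPA. The shares were 7.69%, 5.88%, 5.26% and 8.70%, beside 52.5%, 40.0%, 44.6% and 45.8% of all promoter summits. The other form, CAGATG, was more frequent, at 38.5%, 29.4%, 31.6% and 39.1% of member summits, beside 25.7%, 22.2%, 22.7% and 24.2%. Each of these shares rests on 13 to 23 summits, and the CAGATG summits of Rpl32 and Rpl5 recur in every Atoh1 list. CAGATG was also more frequent at member summits in the Pou4f3 lists across iPou4f3, iG+P, iP+A, iGPA. There it stood at 13.4%, 14.5%, 17.1% and 22.2%, beside 7.80%, 9.15%, 8.93% and 12.4%. The Gfi1 pattern, read as AATCACAGC or as AATCACTGC, was found at 1 of 7 member summits of the Gfi1 list (14.3%), beside 8.84% of its promoter summits.

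The Pou4f pattern ATAATTAAT, with at most 1 mismatch, was found at 3 of 67, 2 of 62, 1 of 41 and 1 of 27 member summits in the Pou4f3 lists across iPou4f3, iG+P, iP+A, iGPA. These shares of 4.48%, 3.23%, 2.44% and 3.70% stood beside 8.81%, 13.3%, 12.1% and 22.3% of all promoter summits. In the Atoh1 lists the same pattern was found at 0 of 13, 0 of 17, 2 of 19 (10.5%) and 2 of 23 (8.70%) member summits, beside 1.23%, 1.09%, 2.34% and 2.41%. The upstream site of Rps14 recurs among these matches. It gave a match in every Pou4f3 list, the only one in iP+A and iGPA. The same site gave 1 of the Atoh1 matches in iP+A, beside Rpl9, and in iGPA, beside Rpl38. No member summit held the pattern without a mismatch, a form also added after the data had been seen. The Myc protein of the cell binds the E-box CACGTG, and since Pou4f3 was precipitated through a Myc tag, that form was added after the counts of the Pou4f3 lists had been seen. It was present at 7.46%, 11.3%, 7.32% and 11.1% of member summits, beside 8.61%, 6.10%, 6.73% and 6.44%. The part of the antibody in the Pou4f3 counts was not tested.

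**Figure D4:**
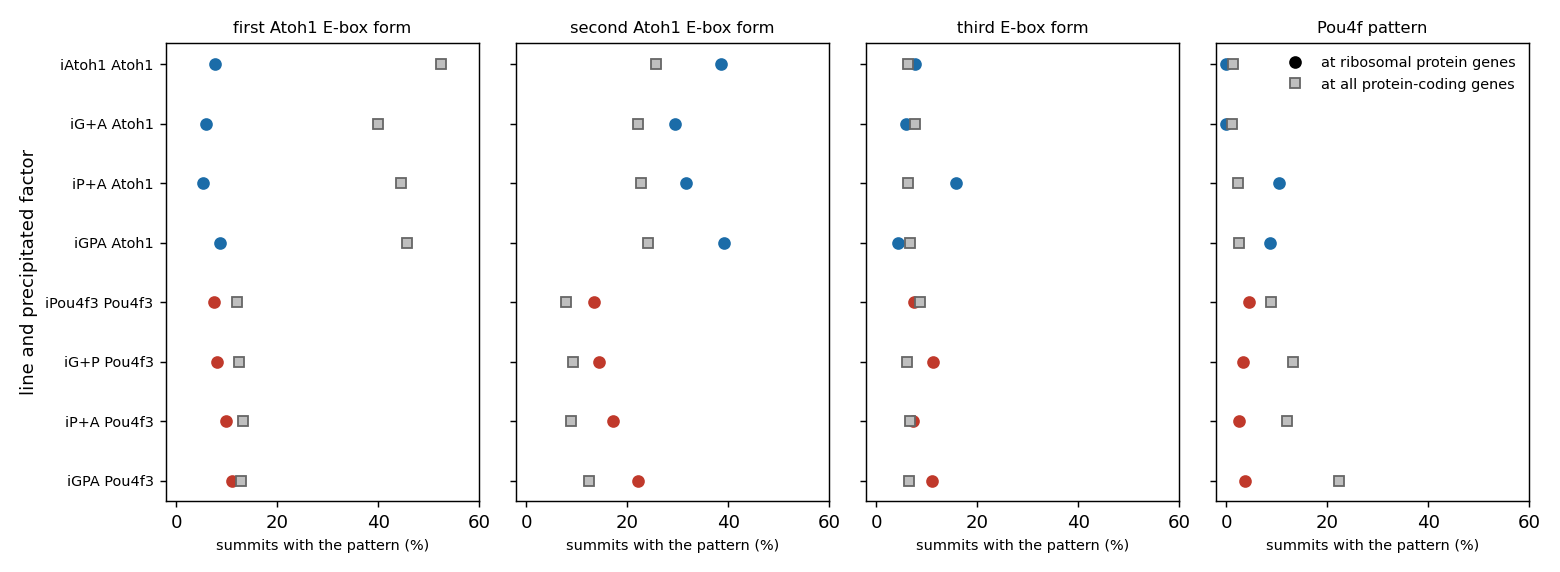
Percent of kept promoter summits with a pattern in the 250 bp around them, in the 8 Atoh1 and Pou4f3 lists (rows). Circles are summits at ribosomal protein genes (blue Atoh1, red Pou4f3) and squares those at all protein-coding genes. Panels show, from the left, the E-box CAGCTG, the E-box CAGATG, the E-box CACGTG and the Pou4f pattern with at most 1 mismatch, and in the first panel the Atoh1 circles lie at 5.26% to 8.70% while the squares lie at 40.0% to 52.5%.

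Some patterns were counted at the starts themselves, each present in a minority of the members. For each gene only the most upstream start of its protein-coding transcripts was read. Many members have further annotated starts, and patterns at those were not counted. In the 300 bp from 250 bp upstream to 50 bp downstream of the start, the ETS pattern CCGGAAG was present at 27.6% of members, beside 10.9% of all protein-coding starts and 17.8% of CpG-rich ones. The YY1 pattern AAGATGGC was present at 6.58%, beside 3.28% and 4.49%. A run of at least 7 pyrimidines within 10 bp of the start was present at 21.1%, beside 12.7% and 11.6%. The Sp1 pattern GGGCGG was present at 46.1%, beside 44.0% of all starts and 69.1% of CpG-rich ones, and CAGCTG at 5.26%, beside 15.1% and 13.5%. The 63 members with a Pou4f3 summit and the 13 without had the ETS pattern in 17 and 4 cases and the Sp1 pattern in 26 and 9.

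Another protein-coding start lay within 1 kb of 14 members, among them Rps18, Rpl12, Rpl9, Rps27 and Rps28. All 14 had a summit in at least 1 list, beside 48.0% of all genes. The share among other genes with such a neighbour was not counted. Without these members 50 of 62 were in any list (80.6%, beside 48.0% of all genes). Only the members were filtered here, and the background of all genes, also in the ratios that follow, kept those with a neighbouring start. In the Pou4f3 lists of iPou4f3, iG+P, iP+A, iGPA there were 46, 42, 26 and 20, with ratios of 2.86, 3.30, 2.97 and 3.26. With a limit of 5 kb Atoh1 in iGPA had 31 members in place of 20 (40.8%, beside 34.5% of all genes). The ratio was 1.18 in place of 1.01. With 250 bp Gfi1 had 4 members in place of 7 (5.26%, beside 2.69%), with a ratio of 1.96 in place of 1.93. Just inside the limit of 1 kb, Rps29 had its nearest Pou4f3 summits at 942 bp in iPou4f3 and 945 bp in iG+P, and Rpl36 at 959 bp in iGPA. Just outside it, Rpl7 had Atoh1 summits at 1054 bp in iAtoh1 and 1084 bp in iGPA.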

How the data were processed

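Chromatin immunoprecipitation libraries were grouped by the line and antibody in their titles. Files whose name gives all 3 factors were taken as iGPA. The authors trimmed reads (Trimmomatic), aligned them to mm9 (Bowtie 2), discarded duplicates, poorly mapped reads and those in blacklisted regions, and ran MACS 2 with merged replicates and merged input. Versions are not given in the sources used here. Per the deposited peak files, fold enrichment is a ratio to the local background, and p-values are given as −log10. The deposited summit files carry a signal score that was not used. They name the peaks the authors kept, by a filter not stated, and 14.1% to 35.5% of called peaks were absent from them. Total read depth is unknown. Pileups and local backgrounds were recovered by inverting fold and −log10 p (tolerance 0.001) and are derived values.

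Starts were those of all transcripts of protein-coding genes in the GENCODE annotation of NCBIM37, the same assembly as mm9. Where several summits lay near a gene, the one of highest fold was named. Named genes were the 10 in most lists, the 3 of highest fold in each list, those with a Gfi1 summit and those in no list, of which some are not reported here. Places in the gene were assigned after the summits had been seen. Members and gene lists were chosen with earlier results of these data known. Matching and inversion were tested on simulated data. Python 3.11.15, pandas 2.3.3, scipy 1.17.1 and pysam 0.24.0 were used.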

Additional observations from a re-analysis of the deposited data

Results flagged for a closer look

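Called peaks that are absent from the summit lists were not used in the counts above. Of the 12 ribosomal protein genes with no kept summit, 6 had such a peak within 1 kb of a start, beside 744 of 11620 protein-coding genes with no kept summit (6.40%). They included Rpl3 in 4 lists, Rps21 in 3, and Rps9 and Rps16 in 1 each. Within single lists, 0 members (iAtoh1 Atoh1, beside 2.24% of all genes) to 10 members (iP+A Pou4f3, 13.2% beside 4.56%) had only a peak that was left out, and the reason for leaving peaks out was not stated.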

How the results depend on the processing

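No paired analysis was possible because peaks were called on merged replicates and no list carries replicate values, and for the same reason no replicate could be left out. Counting all called peaks, protein-coding transcripts alone, the members with no other gene start within 1 kb, or a cytosolic set of 78 genes moved no count by over 1.5 times. A −log10 p of at least 10 left 3, 2, 4 and 8 members with Atoh1 (iAtoh1, iG+A, iP+A, iGPA) and 35, 15, 13 and 4 with Pou4f3 (iPou4f3, iG+P, iP+A, iGPA). It left 0 with Gfi1 and 40 in any list (52.6%, beside 21.6% of all genes). The ratios to all genes were then 1.14, 0.475, 0.929 and 0.938 for Atoh1, 5.22, 5.10, 5.80 and 1.48 for Pou4f3 and 0 for Gfi1. With every list cut to its 3012 summits of highest −log10 p, 0, 1, 2 and 1 members remained for Atoh1 and 11, 1, 4 and 1 for Pou4f3. In any list 21 remained (27.6%, beside 10.6% of all genes). The ratios were 0, 0.530, 1.09 and 0.441 for Atoh1 and 7.62, 1.10, 3.74 and 1.21 for Pou4f3, in the same order (the cause was not tested). Within 250 bp the Pou4f3 ratios were 4.14, 4.67, 4.66 and 4.87, and Gfi1 had 4 members (5.26%, beside 2.69% of all genes). The Atoh1 ratios within 250 bp were 1.83, 1.22, 1.61 and 1.24 (iAtoh1, iG+A, iP+A, iGPA). With all called peaks they were 1.19, 1.17, 1.47 and 1.13 in the same order. Within 5 kb the Pou4f3 ratios were 2.40, 2.27, 2.21 and 2.03, and Atoh1 in iGPA had 31 members (40.8%, beside 34.5% of all genes). Against CpG-rich genes the Pou4f3 ratios were 1.61, 1.85, 1.69 and 1.83 and that of Atoh1 in iGPA 0.617. Total depth is unknown. At promoter summits the median local background was 5.87 to 8.30 fragments for Atoh1 and Pou4f3 and 3.55 for Gfi1.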

Other observations

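Rpl19, chosen after its values were seen, had a Pou4f3 summit of 12.2 fold in iGPA at 1087 bp from its nearest start, beyond the distance limit. That fold exceeds the 11.0 of Rps14, the highest of the counted members in that list.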
